A study of Mus musculus with 9 samples.

Results

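Lpo, Wfdc2, Wfdc12, Wfdc18 and Slpi encode secreted proteins of saliva, a peroxidase and 4 proteins of the whey acidic protein (WAP) family, and were followed by their symbols through RNA sequencing of mouse salivary glands. All 5 of these genes were found among the 23256 genes of the deposited tables, and all 5 passed the filter on low counts. The glands were submandibular and sublingual glands of female C57BL/6 mice aged 34 weeks, in 3 groups of 3 libraries each. Control mice ate standard chow. The DIO group (diet-induced obesity) ate a diet with 60% of its calories from fat, begun at 4 weeks of age and kept for 20 weeks. The SG group consisted of DIO mice that had a sleeve gastrectomy, removal of about 80% of the stomach along its greater curvature, at 24 weeks of age after a 12-hour fast and under isoflurane. Neither a sham operation nor the diet of the obese mice beyond 24 weeks of age is stated, so that effects of surgery, fast, anaesthesia and later diet cannot be told apart. Body weights are not stated either. Whether the 3 libraries of a group are 3 mice is also unstated, and p-values therefore reflect differences among libraries that could be partly technical. Libraries are named by group and replicate number below.

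As background, lactoperoxidase, the product of Lpo, is a heme enzyme that uses hydrogen peroxide to oxidise thiocyanate, iodide or bromide to short-lived oxidants that act on bacteria. Salivary cells secrete it, dual oxidases of duct and other epithelia can supply its peroxide, and anion transporters bring thiocyanate into saliva. The WAP domain is a short fold held together by 4 disulfide bonds, and several proteins that carry it bind serine proteases. Slpi, the secretory leukocyte peptidase inhibitor, is known for blocking neutrophil elastase and cathepsin G and for being made by many mucosal epithelia and by leukocytes. Wfdc2, also called HE4, is made by epithelia of the airways, the reproductive tract and salivary ducts. Wfdc12 and Wfdc18 are small WAP proteins with a single domain, Wfdc18 being known also as Expi from the mammary gland.

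The sequences show what the 4 WAP genes have in common and where they differ. Each is written here over the coding stretch from the first to the last cysteine of a WAP domain, 5′ to 3′, with the cysteine codons in capitals, as read from GENCODE M21 transcripts on GRCm38.
Wfdc12: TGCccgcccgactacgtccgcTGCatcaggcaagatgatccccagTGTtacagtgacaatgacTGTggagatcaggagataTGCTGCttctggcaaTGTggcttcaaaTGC
Wfdc18: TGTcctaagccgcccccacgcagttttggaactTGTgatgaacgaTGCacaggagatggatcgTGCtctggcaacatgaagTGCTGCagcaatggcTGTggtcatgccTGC
Wfdc2, first domain: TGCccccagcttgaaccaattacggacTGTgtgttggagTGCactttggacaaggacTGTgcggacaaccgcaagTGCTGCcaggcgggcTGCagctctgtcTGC
Wfdc2, second domain: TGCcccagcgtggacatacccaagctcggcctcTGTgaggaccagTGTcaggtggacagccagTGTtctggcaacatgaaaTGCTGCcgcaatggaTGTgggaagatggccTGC
Slpi, first domain: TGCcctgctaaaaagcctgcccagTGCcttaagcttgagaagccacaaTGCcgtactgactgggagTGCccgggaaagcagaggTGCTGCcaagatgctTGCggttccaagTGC
Slpi, second domain: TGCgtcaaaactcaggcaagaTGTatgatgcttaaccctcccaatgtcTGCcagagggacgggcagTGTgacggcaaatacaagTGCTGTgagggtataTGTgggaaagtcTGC
Each stretch was located by 2 adjacent cysteine codons, taken as the fifth and the sixth of a set of 8. The number of 8 and the adjacent pair were thus fixed by the search. All 6 stretches had a step of 6 codons from the third to the fourth cysteine and from the fourth to the fifth. From the sixth to the seventh the step was 4 codons in all 6. The stretches were 35 codons long in the first domain of Wfdc2, 37 in Wfdc12 and Wfdc18, and 38 in the other three. The start of the domain varied most. The step from the second to the third cysteine was 8 codons in Wfdc12, 4 in Wfdc18 and in both domains of Wfdc2, and 8 and 9 in the domains of Slpi. Wfdc12 and Wfdc18 had 85 and 74 coding codons and 1 domain each, whereas Slpi and Wfdc2 had 131 and 174 codons and 2 domains each. The remaining cysteine codons of Slpi and Wfdc2 lay at codon 4 and, in Wfdc2, also at codon 7, ahead of the first domain. Lpo, with 710 codons, held no such set of cysteines, and its coding sequence was 59.7% identical to that of Mpo, the myeloperoxidase of neutrophils.

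**Figure D1:**
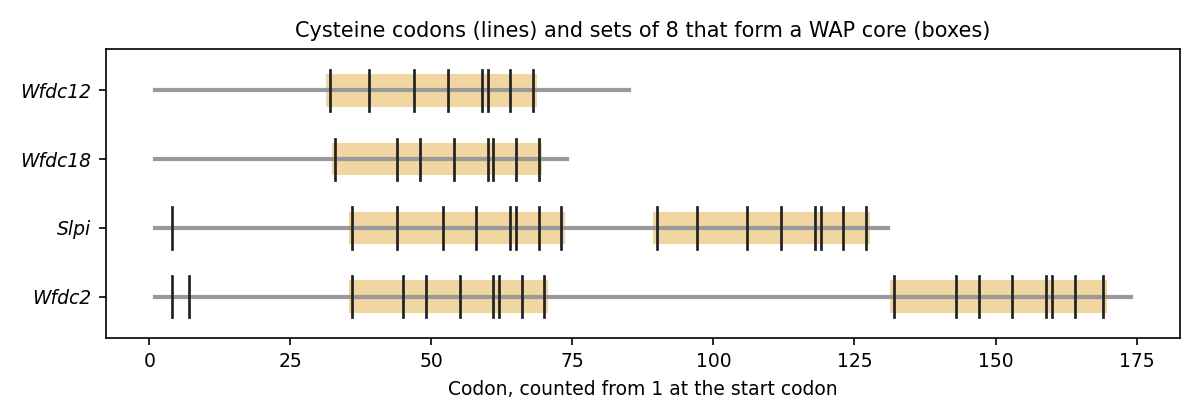
Cysteine codons (lines) along the coding sequence of the 4 WAP genes (grey bars, in codons from the start codon), with boxes around each set of 8 that forms a WAP domain. Wfdc12 and Wfdc18 show 1 box each, Slpi and Wfdc2 show 2.

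In the reference, Lpo and Wfdc18 lie on chromosome 11, and Wfdc2, Wfdc12 and Slpi on chromosome 2. Lpo has Mpo as a neighbour, and Wfdc18 lies beside Wfdc17, whose coding sequence was 81.8% identical to it over 225 bases. The sources used here do not give how reads shared by close copies were assigned. These coding sequences shared no run longer than 20 bases, and Wfdc17 had 62 to 144 counts per library, at most 2.67% of those of Wfdc18. Wfdc12 overlaps an antisense transcript, A730032A03Rik, with 20 to 57 counts, at most 0.0612% of those of Wfdc12, and without a stated strand setting their reads cannot be told apart. Slpi overlaps a microRNA gene, Mir7678, on its own strand.

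Libraries held 36349885 to 43495564 counts, so that 3 counts, the floor of detection used here, equalled 0.0676 to 0.0833 CPM (counts relative to the size of the library after TMM scaling). Markers of the labelled glands were present, with 57684 to 106548 CPM summed over 6 of 6 seromucous acinar genes and 1014 to 2414 CPM over 5 of 5 mucous acinar genes. Control 2 was the least typical library, with an average Spearman correlation to the remaining 8 of 0.973, where every other library reached 0.985 to 0.987. It also held the highest sums of 4 of 4 parotid acinar genes (33973 CPM, against 1095 to 8246), of 7 of 7 B cell and lymph node genes (135 CPM, against 4.17 to 36.1) and of 7 neutrophil genes (28.8 CPM, against 0.866 to 7.48). Among the neutrophil genes, Ly6g and Cxcr2 were at 0 in all 3 DIO libraries. SG 2 held the highest sums of skeletal muscle genes (25.0 CPM, against 2.43 to 3.97) and of red blood cell genes (401 CPM, against 43.1 to 252). The part of these cells in the results below was not tested unless a value is given.

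Per gene length, the 5 genes kept the same order in all 9 libraries. On the FPKM scale, which divides counts by gene length and library size, Wfdc12 was highest with a mean of 2680, rank 17 of all 23256 genes. Lpo followed at 560 (rank 51), Wfdc18 at 308 (rank 100), Wfdc2 at 104 (rank 302) and Slpi at 5.11 (rank 5409). The FPKM ranges of neighbours in this order did not overlap over the 9 libraries. The gap was narrowest between Lpo, whose lowest FPKM was 432, and Wfdc18, whose highest was 428. Wfdc12 spanned 1704 to 3194 FPKM, Wfdc2 81.0 to 142, and Slpi 0.616 to 19.3. The ratio of Wfdc12 to Slpi thus ran from 165 in control 2 to 5147 in control 3. The ratio of Lpo to Wfdc12 was 0.135 to 0.244 in 8 libraries and 0.495 in SG 2. Together the 5 genes took 0.346% to 0.439% of the counts of a library.

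**Figure D2:**
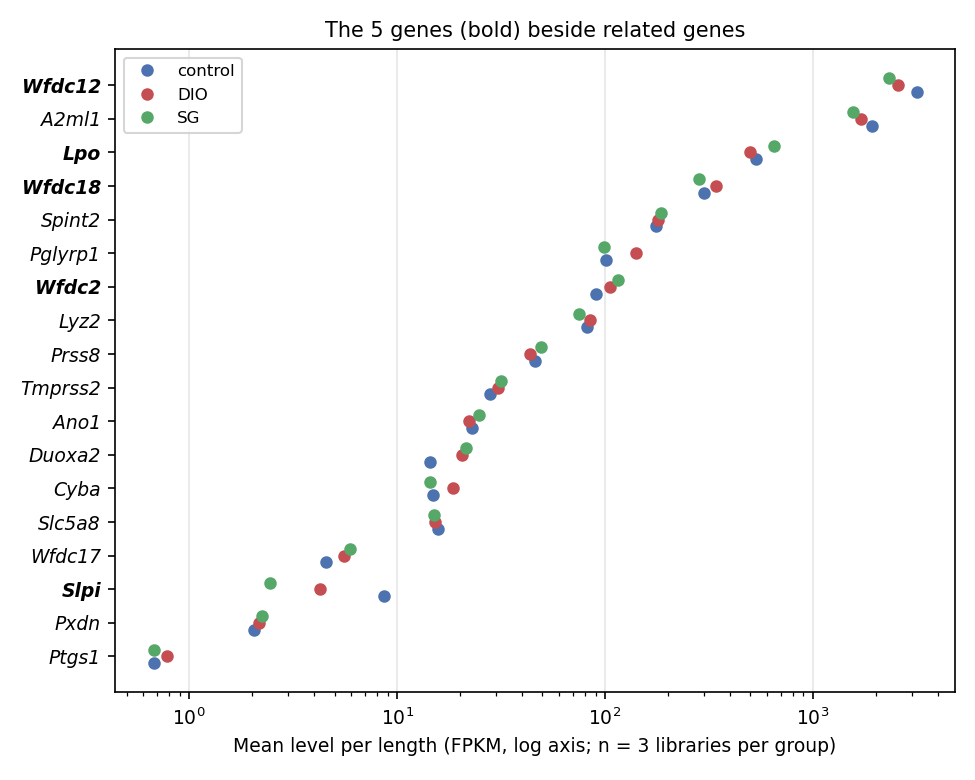
Mean FPKM (log axis) of the 5 genes, in bold, and of related genes named in the text, for control, DIO and SG (n = 3 libraries each). Wfdc12 is at 2327 to 3152 in the group means and Slpi at 2.44 to 8.63, with the other three between.

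Lpo, the peroxidase, was measured at 1579, 1173 and 1802 CPM in control 1, 2 and 3. In DIO 1, 2 and 3 it was at 1136, 1294 and 1568 CPM, and in SG 1, 2 and 3 at 1530, 2238 and 1668 CPM. SG 2 was the highest of the 9 libraries, and the lowest were DIO 1 and control 2. The groups overlapped in all comparisons, although only DIO 3 reached above the lowest SG library. Group means were 1518 ± 319 CPM in control, 1333 ± 218 in DIO and 1812 ± 375 in SG (SD, n = 3).

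Wfdc12, the most abundant of the 5 genes, was at 2548, 2425 and 2543 CPM in the control libraries, at 1698, 2083 and 1951 CPM in DIO 1, 2 and 3, and at 1756, 1266 and 2540 CPM in SG 1, 2 and 3. The control libraries lay close together, with a coefficient of variation (SD over mean) of 2.78%, against 10.2% in DIO and 34.7% in SG. Every DIO library lay below every control library, whereas SG 3 was at the control level and SG 2 was the lowest of all 9. Group means were 2506 ± 69.8, 1910 ± 195 and 1854 ± 643 CPM (SD, n = 3). A difference in spread was not tested.

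Wfdc2 was at 67.5, 56.6 and 74.9 CPM in control 1, 2 and 3, at 64.9, 66.2 and 88.3 CPM in DIO 1, 2 and 3, and at 71.3, 96.8 and 82.7 CPM in SG 1, 2 and 3. The group means were in ascending order from control (66.3 ± 9.20 CPM) through DIO (73.1 ± 13.1) to SG (83.6 ± 12.8), with overlapping libraries at each step. Control 2 was the lowest and SG 2 the highest, the same 2 libraries that were low and high for Lpo, apart from DIO 1.

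Wfdc18 was at 159, 216 and 121 CPM in control 1, 2 and 3, at 210, 154 and 167 CPM in DIO 1, 2 and 3, and at 166, 121 and 189 CPM in SG 1, 2 and 3. Here control 2 was the highest, and control 3 and SG 2 shared the lowest level. The group means of 165 ± 47.7, 177 ± 29.0 and 158 ± 34.5 CPM differed by less than their SDs. The 3 control libraries alone spanned the whole range of Wfdc18.

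Slpi, the elastase inhibitor, was low and unevenly distributed. The control libraries had 325, 1140 and 36 counts, or 8.65, 25.7 and 0.866 CPM, a 29.7-fold range within a group. The DIO libraries were at 6.97, 3.93 and 5.70 CPM and the SG libraries at 3.96, 2.34 and 3.86 CPM. Both the highest and the lowest level of the 9 libraries were thus controls. The highest, control 2, is the library with the most parotid, lymphoid and neutrophil marker RNA, and the lowest, control 3, had the least neutrophil marker RNA (0.866 CPM). Not all libraries kept this order. SG 2 had 7.48 CPM of neutrophil marker RNA and 2.34 CPM of Slpi, and control 1 had 1.38 and 8.65 CPM. The part of those cells in the level of Slpi was not tested. With 36 counts or more, all 9 libraries were above the floor of 3 counts.

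Among all genes tested, of any level, the spread of Slpi ranked high and that of the rest nearer the middle. The mean coefficient of variation within groups was 54.2% for Slpi, at percentile 94.4 of the 14912 genes tested, whose median was 12.4%. It was 15.7% for Wfdc2, 15.9% for Wfdc12, 19.4% for Lpo and 22.4% for Wfdc18, at percentiles 61.0 to 73.0. By group, the coefficient of Slpi was 108% in control, 27.6% in DIO and 26.9% in SG. The genes compared were not matched for level.

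**Figure D3:**
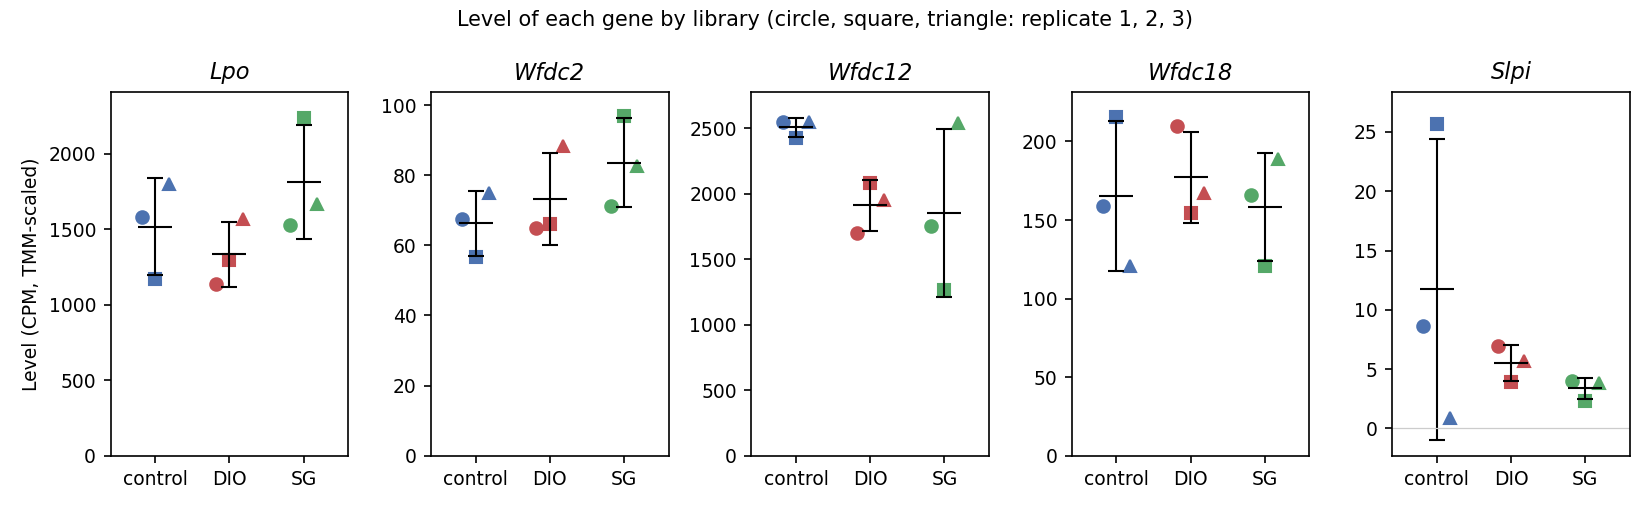
Level in CPM of each gene in the 9 libraries (circles, squares and triangles are replicates 1, 2 and 3), with the group mean and SD as black bars, n = 3. The 3 DIO points of Wfdc12 lie below the 3 control points, and Slpi in control spans 0.866 to 25.7 CPM.

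The comparison of DIO with control asks how glands of mice with diet-induced obesity differ from those of mice on chow. Wfdc12 was lower in all 3 DIO libraries than in any control library, and was the single one of the 5 genes whose groups did not overlap. Of all genes tested, 16.3% did not overlap in this comparison, and 7.38% were lower in DIO without overlap. Its log2 fold change of -0.39 (SE 0.20, 95% interval -0.84 to 0.06) did not pass the test (edgeR, Benjamini-Hochberg adjusted p = 0.551). None of the 5 genes passed, and 0.0939% of all genes tested did, 14 of 14912. At an unadjusted p under 0.05 the count was 0 of the 5 genes by edgeR, against 10.3% of all genes. DESeq2 called 1.29% of all genes and none of the 5, and gave Wfdc12 an unadjusted p of 0.0264 and an adjusted p of 0.384. In bulk tissue, a lower level can come from fewer cells of a type or from less RNA per cell, which cannot be told apart here.

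The other 4 genes differed between DIO and control by less than their intervals. Lpo had a log2 fold change of -0.19 (interval -0.61 to 0.24, edgeR adjusted p = 0.792), Wfdc2 of 0.14 (-0.20 to 0.48, edgeR adjusted p = 0.808) and Wfdc18 of 0.10 (-0.37 to 0.58, edgeR adjusted p = 0.917). As folds, the intervals of these 3 genes lay between 0.654 and 1.49 times the control level. Slpi had a log2 fold change of -1.09 with a wide interval of -2.76 to 0.59 (edgeR adjusted p = 0.672), and by limma on log2(FPKM + 1) its difference was -0.25. Single libraries moved these values. Over 9 fits that each left out 1 library, Lpo ran from -0.37 (without control 2) to -0.046 (without control 3), and Wfdc2 from -0.016 (without DIO 3) to 0.24 (without control 3). Wfdc18 ran from -0.079 (without control 3) to 0.32 (without control 2) and was -0.053 without DIO 1, while Slpi ran from -1.63 (without control 3) to 0.21 (without control 2). The count of 14 genes over the whole table was 140 without control 2, and 0 to 4 without control 1, control 3, any 1 of the DIO libraries or SG 3.

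The comparison of SG with DIO sets mice with a sleeve gastrectomy against DIO mice without one. Lpo was higher in SG, 1812 ± 375 against 1333 ± 218 CPM, a log2 fold change of 0.44 (SE 0.19, 95% interval 0.02 to 0.87). Its unadjusted p of 0.0426 by edgeR was 1 of 1331 under 0.05, or 8.93% of the genes tested, and 3.78% were higher in SG with such a p. After adjustment the p was 0.548 (edgeR, Benjamini-Hochberg), and none of the 5 genes passed. No gene at all passed in this comparison by edgeR (0%), while DESeq2 called 79, or 0.531%, and none of the 5. DESeq2 gave Lpo an unadjusted p of 0.00886 and an adjusted p of 0.286. Over the fits that each left out 1 library, its log2 fold change ran from 0.28 (without SG 2, the library with the highest Lpo) to 0.58 (without DIO 3).

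Wfdc2 was also at a higher mean in SG than in DIO, with a log2 fold change of 0.19 (interval -0.14 to 0.53, edgeR adjusted p = 0.758). The remaining antiproteases were near or below the DIO level. Wfdc12 had a log2 fold change of -0.04 (interval -0.49 to 0.41, edgeR adjusted p = 0.976), Wfdc18 of -0.16 (-0.64 to 0.31, edgeR adjusted p = 0.876) and Slpi of -0.71 (-2.43 to 1.01, edgeR adjusted p = 0.839). Without SG 2 the values of Wfdc2, Wfdc12 and Wfdc18 were 0.088, 0.18 and 0.013, and without SG 3 those of Wfdc12 and Wfdc18 were -0.34 and -0.31. Wfdc2 was at 0.35 without DIO 3, and Wfdc12 at 0.037 without DIO 2. None of the 5 genes had groups that did not overlap, against 16.3% of all genes.

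The comparison of SG with control sets mice with a sleeve gastrectomy against mice on chow, and shares its libraries with both others. Slpi had the largest difference, with 3.39 ± 0.910 CPM in SG against 11.7 ± 12.7 in control and a log2 fold change of -1.79 (interval -3.52 to -0.07). Its unadjusted p of 0.0429 by edgeR was the only one of the 5 under 0.05, with 8.1% of all genes tested under it and 4.63% under it and lower in SG, and the adjusted p was 0.591 (edgeR). DESeq2 gave Slpi an unadjusted p of 0.0608, and gave unadjusted p-values of 0.0179 for Wfdc12 and 0.0346 for Wfdc2, with adjusted p-values of 0.659, 0.453 and 0.552 in that order. Without control 2 the log2 fold change of Slpi was -0.49, without control 3 it was -2.34, and by limma on log2(FPKM + 1) it was -0.85. Wfdc12 was at 1854 ± 643 against 2506 ± 69.8 CPM, a log2 fold change of -0.43 (interval -0.89 to 0.02, edgeR adjusted p = 0.629), which was -0.23 without SG 2 and -0.73 without SG 3. Wfdc2 was at 83.6 ± 12.8 against 66.3 ± 9.20 CPM, a log2 fold change of 0.33 (interval -0.0036 to 0.67, edgeR adjusted p = 0.619), which was 0.21 without SG 2 and 0.22 without control 2. Lpo had a log2 fold change of 0.26 (interval -0.17 to 0.68, edgeR adjusted p = 0.775), which was 0.086 without control 2, 0.069 without SG 2 and 0.40 without control 3. Wfdc18 stood at -0.06 (interval -0.53 to 0.42, edgeR adjusted p = 0.963), and ran from -0.24 without control 3 to 0.17 without control 2. None of the 5 genes passed and none lacked overlap, where edgeR called 0% of all genes, DESeq2 called 57 (0.383%) but none of the 5, and 11.8% did not overlap.

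**Figure D4:**
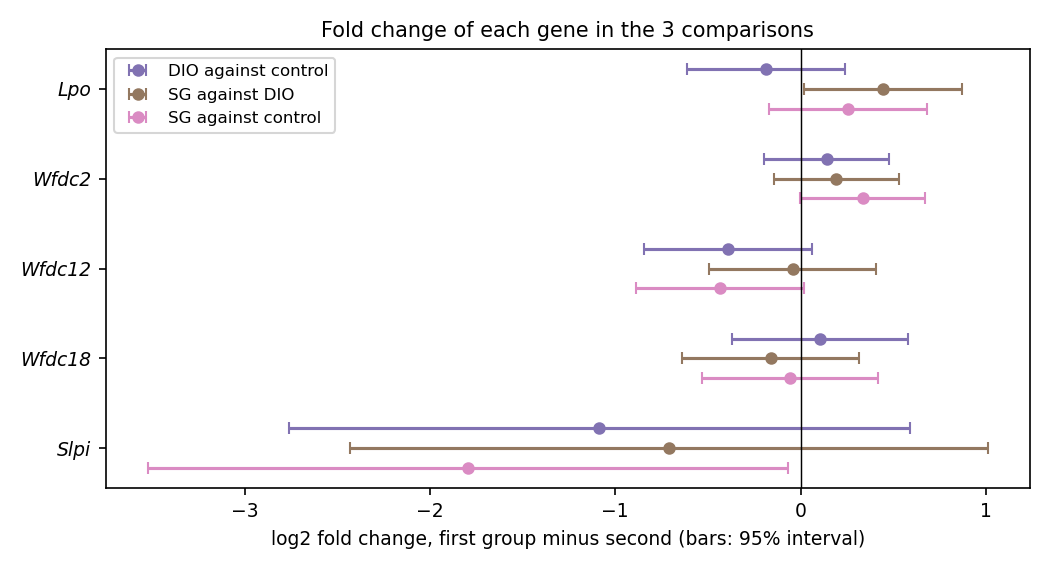
Log2 fold change of each gene in the 3 comparisons (points) with its 95% interval from the edgeR fit (bars), n = 3 libraries per group. The intervals of Slpi are the widest, and those of Lpo in SG against DIO and of Slpi in SG against control end just short of 0.

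From library to library, Lpo varied with Wfdc2, and Wfdc18 with Slpi. Over the 9 libraries, log2 CPM of Lpo and Wfdc2 had a Pearson r of 0.84 (exact permutation p = 0.00465) and a Spearman rho of 0.83 (exact permutation p = 0.00827). The 10 pairs of the 5 genes gave 20 such tests, and both had an adjusted p of 0.0416 over these by the Benjamini-Hochberg method (exact permutation tests). Without DIO 1 and SG 2, the libraries farthest from the median of Lpo, r was 0.75, and after subtraction of the group means it was 0.95. Leaving out any single library gave 0.74 to 0.90.

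Wfdc18 and Slpi had r = 0.81 (exact permutation p = 0.0063, adjusted 0.0416) and rho = 0.72 (exact permutation p = 0.0369, adjusted 0.123). Without control 3 and SG 2, which had the lowest levels of both genes, r was 0.60, and without control 2 it was 0.75. Lpo and Wfdc18 ran against each other, with r = -0.81 (exact permutation p = 0.00832, adjusted 0.0416) and rho = -0.68 (exact permutation p = 0.0503, adjusted 0.126). Without DIO 1 and SG 2 that r was -0.63. Lpo and Slpi had r = -0.68 (exact permutation p = 0.0452, adjusted 0.126). Wfdc12 followed none of the others, with r of -0.46 to 0.25, and the remaining pairs had an adjusted p of at least 0.131 (exact permutation tests). Libraries share a total, so levels of different genes within them are not independent.

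**Figure D5:**
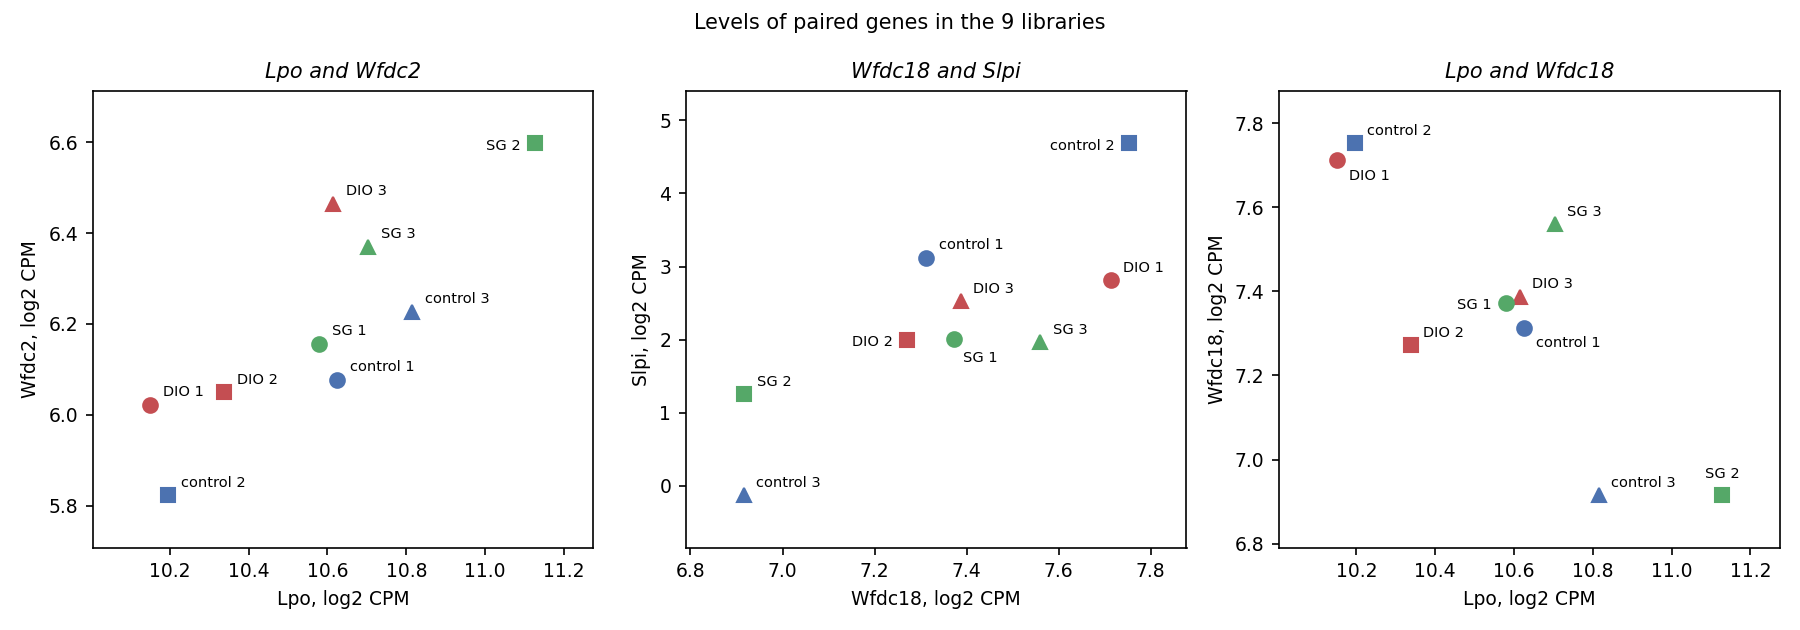
Log2 CPM of 3 gene pairs in the 9 libraries, coloured by group. Lpo and Wfdc2 line up from control 2 and DIO 1 to SG 2 (r = 0.84), Wfdc18 and Slpi from control 3 to control 2 (r = 0.81), and Lpo and Wfdc18 run in opposite directions (r = -0.81).

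Marker sums for ducts were lowest and highest in the same libraries as Wfdc2. Genes of the granular duct, the hormone- and kallikrein-secreting duct of the rodent submandibular gland (7 of 7 tested), summed to 3190 CPM in control 2 and 8416 CPM in SG 2, with 3879 to 6901 CPM in the others. Genes of other ducts (8 of 8 tested) summed to 349 CPM in control 2, 524 CPM in SG 2 and 401 to 515 CPM in the rest. Mucous acinar genes went the other way, at 2414 CPM in control 2 and 1014 CPM in SG 2, the highest and the lowest sums. Parotid acinar genes had the same extremes, at 33973 CPM in control 2 and 1095 CPM in SG 2. Seromucous acinar genes did not, with the lowest sum in DIO 3 (57684 CPM) and the highest in SG 3 (106548 CPM). The part of duct and acinar cells in the levels of Lpo, Wfdc2 and Wfdc18 was not tested.

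The promoters of the genes that varied together differ in base composition. They are shown over the 150 bases before the start of transcription, from RefSeq on GRCm38.p6, with motifs that were found in capitals.
Lpo (chr11:87826115-87826264, - strand): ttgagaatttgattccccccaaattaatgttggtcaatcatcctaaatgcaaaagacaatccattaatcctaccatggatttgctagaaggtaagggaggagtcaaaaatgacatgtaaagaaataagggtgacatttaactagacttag
Wfdc2 (chr2:164562565-164562714, + strand): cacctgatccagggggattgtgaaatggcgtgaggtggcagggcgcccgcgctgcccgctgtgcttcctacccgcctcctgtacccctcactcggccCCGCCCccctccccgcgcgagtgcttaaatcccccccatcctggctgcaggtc
Wfdc18 (chr11:83708854-83709003, + strand): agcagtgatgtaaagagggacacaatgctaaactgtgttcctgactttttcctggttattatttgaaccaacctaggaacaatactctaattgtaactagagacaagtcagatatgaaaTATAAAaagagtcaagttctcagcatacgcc
Slpi (chr2:164356508-164356657, - strand): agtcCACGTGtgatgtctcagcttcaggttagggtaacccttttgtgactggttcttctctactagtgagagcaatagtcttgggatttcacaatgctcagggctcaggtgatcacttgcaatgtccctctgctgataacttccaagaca
Of these bases, 35.3% were G or C in Lpo, 69.3% in Wfdc2, 36.7% in Wfdc18 and 46.7% in Slpi. The 250 bases before each start were searched on both strands for the TATA box TATAAA, the CCAAT box, the GC box GGGCGG, the E box CACGTG, the AP-1 site TGANTCA and the STAT site TTCNNNGAA. Each match is a description of the letters and not a site. The window of Wfdc18 held the TATA box 31 bases before the start. Anywhere in the window and on either strand, 12.97% of 27025 RefSeq promoters of the same length held it. That of Wfdc2 held the GC box on the reverse strand 53 bases before the start, and that of Slpi held the E box 146 bases before it. Counted in the same way at any place, 32.94% of promoters held the GC box and 6.05% the E box. None of the 6 motifs was found in the windows of Lpo and Wfdc12. Neither Lpo and Wfdc2 nor Wfdc18 and Slpi shared a searched motif.

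Among 11071 genes with a mean of at least 2 CPM, those whose log2 CPM followed each gene most closely over the 9 libraries are given by Pearson r, as a description. Lpo was followed by Abhd11 (0.98), Prdx3 (0.97) and Ndufa6 (0.96), of which Prdx3 encodes a mitochondrial peroxiredoxin and Ndufa6 a subunit of respiratory complex I. Wfdc2 was followed by Mea1, Phb and Atp5md (0.98 each), the second encoding prohibitin and the third a subunit of ATP synthase. Wfdc12 was followed by Apol7a (0.94), Oat (0.90) and Fbxo44 (0.90), where Oat encodes ornithine aminotransferase. Wfdc18 was followed by Fchsd1, Dclk1 and Penk (0.94 each), Penk encoding the precursor of enkephalins, and Slpi by Suv39h1 (0.94), Dram1 (0.93) and Btg1 (0.92). These genes were picked for their r, and none was tested.

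The other genes of the peroxidase system were measured from lists. Lpo, with its mean of 560 FPKM, was far above the other heme peroxidases named here. Pxdn, the peroxidase of basement membranes, had 2.06 ± 0.186, 2.17 ± 0.177 and 2.25 ± 0.429 FPKM in control, DIO and SG, and Ptgs1, cyclooxygenase 1, had 0.675 ± 0.135, 0.782 ± 0.0993 and 0.674 ± 0.0758 FPKM (SD, n = 3). The leukocyte peroxidases were named after their values were seen. Mpo had 44 counts, all in control 2, and Epx had 2 counts, also in control 2. Of the NADPH oxidase genes that can supply hydrogen peroxide, those highest by FPKM were Duoxa2, the maturation factor of dual oxidase 2, and Cyba, the p22phox subunit. Duoxa2 was at 14.3 ± 3.43, 20.6 ± 0.825 and 21.3 ± 4.56 FPKM, and Cyba at 14.8 ± 7.41, 18.6 ± 2.84 and 14.3 ± 1.71 FPKM, in control, DIO and SG. Among the genes listed for thiocyanate and iodide supply, the anion channel gene Ano1 was highest, with 23.0 ± 3.04, 22.1 ± 1.64 and 24.8 ± 1.56 FPKM. The transporter gene Slc5a8 came next, with 15.8 ± 1.56, 15.3 ± 0.866 and 15.1 ± 0.670 FPKM. Whether the products of these genes carry thiocyanate or iodide in the gland was not tested.

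Of the 27 listed protease inhibitors outside the WAP family in the table, the highest were A2ml1 and Spint2, and 21 were tested. A2ml1, of the alpha-2-macroglobulin family, had 1924 ± 728, 1702 ± 582 and 1563 ± 355 FPKM in control, DIO and SG, between Wfdc12 and Lpo. Spint2, a Kunitz-type inhibitor of epithelial serine proteases, had 176 ± 11.4, 179 ± 9.04 and 186 ± 26.1 FPKM. The membrane serine proteases Prss8 (46.0 ± 1.61, 43.8 ± 0.746 and 49.1 ± 3.19 FPKM) and Tmprss2 (28.0 ± 2.50, 30.6 ± 1.79 and 31.7 ± 1.40 FPKM) were the highest of the protease list. The neutrophil proteases that Slpi is known to bind were near 0, and were named after their values were seen. Elane, neutrophil elastase, had 13 counts, all in control 2, and Ctsg, cathepsin G, had 7 counts in control 2 and 1 in control 3. All 6 DIO and SG libraries had 0 counts of both, which allows up to 3 counts in each. Of the other WAP genes, Wfdc17 was highest, at 4.55 ± 2.18, 5.54 ± 0.332 and 5.97 ± 1.17 FPKM. Wfdc21, which was too low to be tested, had 89 counts in control 2, 1 in control 1 and 0 in the other 7 libraries. Among secreted antimicrobial genes, the peptidoglycan recognition protein gene Pglyrp1 (101 ± 38.2, 141 ± 34.8 and 98.9 ± 19.1 FPKM) and the lysozyme gene Lyz2 (81.9 ± 68.7, 84.9 ± 19.5 and 75.0 ± 29.1 FPKM) were highest.

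None of the 61 tested genes of these 7 lists passed the test in any of the 3 comparisons (edgeR, adjusted p under 0.05). In DIO against control, at an unadjusted edgeR p under 0.05, the counts were 1 of 4 other WAP genes, 0 of 2 heme peroxidases, 2 of 9 genes of hydrogen peroxide supply and 2 of 7 of thiocyanate and iodide supply. They were 3 of 21 other protease inhibitors, 4 of 9 serine proteases and 4 of 9 antimicrobial genes, against 10.3% of all genes tested. The median log2 fold change was 0.17 for hydrogen peroxide supply, -0.15 for thiocyanate and iodide supply, 0.055 for the other heme peroxidases, -0.33 for the other WAP genes, -0.061 for the other protease inhibitors and -0.16 for the serine proteases, beside 0.0083 over all genes. For the antimicrobial genes it was -0.83, and 8 of the 9 were lower in DIO. Control 2 held the highest sum of that list, 816 CPM against 352 to 538 CPM. The part of that library's leukocyte and parotid RNA in this median was not tested. The median was the value of Pigr, a gene named after its values were seen. Pigr was at 307 to 490 CPM in control and 200 to 220 CPM in DIO (edgeR adjusted p = 0.212). Of all genes tested, 7.38% were lower in DIO without overlap.

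In SG against DIO, the unadjusted counts were 0 of 4 other WAP genes, 0 of 2 heme peroxidases, 0 of 9 genes of hydrogen peroxide supply, 3 of 7 of thiocyanate and iodide supply, 2 of 21 protease inhibitors, 1 of 9 serine proteases and 1 of 9 antimicrobial genes (edgeR), against 8.93% of all genes. Hydrogen peroxide supply had a median of -0.44, with 6 of 9 genes lower in SG, and thiocyanate and iodide supply one of 0.12, with 6 of 7 higher, beside -0.0047 over all genes. In SG against control, the counts were 0 of 4, 0 of 2, 2 of 9, 1 of 7, 3 of 21, 2 of 9 and 0 of 9 in the same order of lists, against 8.1% of all genes. The medians there were -0.12 for hydrogen peroxide supply, -0.065 for thiocyanate and iodide supply and -0.67 for the antimicrobial genes, all 9 of which were lower in SG, beside 0.0012 over all genes. The sum of the antimicrobial list was 816 CPM in control 2, 446 in control 1, 397 in control 3 and 368 to 538 in SG. The part of control 2 in this median was not tested. DESeq2 called 1 of 59 list genes in DIO against control, where it called 1.29% of all genes. It called 0 of 59 in SG against DIO (0.531% of all genes) and 0 of 59 in SG against control (0.383%). Without control 2, edgeR called 3 of 61 list genes in DIO against control, and 140 of all 15092. In SG against DIO it then called 3 of 61, and 117 of all 15092. With only the 2 groups compared in the fit, edgeR called 3 of 57 list genes in SG against DIO, and 179 of all 14463.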

How the data were processed

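Polyadenylated RNA of 9 libraries was sequenced, per the labels. The authors deposited unscaled read counts per gene and the same counts as FPKM, divided by gene length and library total. Both tables agreed within 0.1% for 100% of nonzero values. HISAT2, Salmon and GRCm39 are named, per the submitters' processing notes. The sources used here do not give versions, annotation release, strand setting or the handling of shared reads. No GRCm39 annotation was used, so sequences come from GENCODE M21 (GRCm38) and RefSeq (GRCm38.p6), matched by symbol for all 5 genes.

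The deposited counts were tested with edgeR 4.0.16 (R 4.3.3): TMM scaling, filterByExpr (14912 genes left, at least 99.8% of each library's counts), 1 quasi-likelihood fit of all 9 libraries, and Benjamini-Hochberg adjustment with a threshold of 0.05. SE and 95% intervals come from that fit. DESeq2 1.42.0, limma 3.58.1 on log2(FPKM + 1), other scalings and filters and left-out libraries were alternatives. Floors cover counting error only. Replicates gave chi-square values of 28.3 to 216 per degree of freedom, so none was a copy. Correlations used log2 CPM with a prior count of 2, SciPy 1.17.1 and exact permutations.

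The 5 genes and all lists were chosen with earlier results of these data known. Named from each list were the 2 genes highest by mean FPKM and any that passed the test, and for each of the 5 genes the 3 closest by Pearson r.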

Additional observations from a re-analysis of the deposited data

How the results depend on the processing

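Under the 18 alternatives to each comparison, 0 of the 270 values of the 5 genes passed the threshold, and 261 kept their direction. The other 9 came from leaving out 1 library. In DIO against control they were Slpi at 0.21 without control 2 (range over left-out libraries -1.63 to 0.21), Wfdc18 at -0.079 without control 3 and -0.053 without DIO 1 (-0.079 to 0.32) and Wfdc2 at -0.016 without DIO 3 (-0.016 to 0.24). In SG against DIO they were Wfdc12 at 0.037 without DIO 2 and 0.18 without SG 2 (-0.34 to 0.18) and Wfdc18 at 0.013 without SG 2 (-0.31 to 0.013). In SG against control they were Wfdc18 at 0.17 without control 2 and 0.10 without SG 2 (-0.24 to 0.17). A lone library out of 3 set these signs, and other causes were not tested.

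By limma on filtered FPKM with pseudocounts of 1 and 0.1, Slpi was at -0.25 and -0.054 in DIO against control and at -0.85 and -0.82 in SG against control, nearer to 0 than in the edgeR fit. The cause was not tested.

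Counts of genes called over the whole table moved more. In DIO against control, where the fit called 14 (8 higher, 6 lower), they were 22 with library totals in place of TMM (17 higher, 5 lower), 192 by DESeq2 (76 higher, 116 lower), 37 with no filter, 4 with 2 groups in the fit, 2 by limma on unfiltered FPKM, and 0 to 140 over left-out libraries. In SG against DIO, where it called 0, they were 79 by DESeq2, 6 with no filter, 179 with 2 groups in the fit, 3 by limma on unfiltered FPKM and 0 to 117 over left-out libraries. In SG against control, where it also called 0, they were 57 by DESeq2, 3 with no filter, 1 by limma on filtered FPKM with either pseudocount (1 or 0.1), 3 without that filter, and 0 to 6 over left-out libraries. The cause was not tested. A fit that leaves out a library assumes that the spread is shared by all groups.

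Replicate numbers recur in the groups, but deviations from the group means correlated at -0.09 to 0.31 between libraries of the same number (3 of 9 over 0.1) and at -0.32 to 0.25 between others (2 of 18), so the numbers were not taken as pairs. With a replicate block the counts called were 18 for DIO against control and 0 for both comparisons of SG. None of the 5 genes passed. With the replicate block the log2 fold changes of Slpi were -0.71, -0.70 and -1.41 in those comparisons, of Lpo -0.20, 0.45 and 0.26, of Wfdc12 -0.39, -0.08 and -0.47, of Wfdc2 0.13, 0.20 and 0.34, and of Wfdc18 0.10, -0.15 and -0.06.

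Depth did not limit Lpo, Wfdc2, Wfdc12 or Wfdc18, and Slpi had at least 36 counts. The 3 libraries of each group limit every interval.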
